A study of Bos taurus with 6 samples.

Results

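The genes described here are 50 genes of mitosis and the spindle, the apparatus that parts the copied chromosomes when a cell divides. They were picked by gene symbol from the deposited FPKM table (fragment numbers scaled by gene length and by the total mapped in each library), and all 50 were among its 23475 genes. All 50 also averaged 0.5 FPKM or more across the 6 libraries, the filter that left 12422 genes for testing. The libraries came from cultured Bos taurus cells isolated from subcutaneous fat of premature calves and grown in high-glucose DMEM with fetal bovine serum and Pen-Strep. In 3 libraries the cells had received the bta-miR-484 agomir, a modified RNA duplex that supplies the mature miRNA, and in 3 the agomir NC, its negative control, and all were collected 48 h after transfection. No strain, sex or genotype was given. The study's methods name 3 calves as the source of the fat. Whether the libraries of a group came from separate calves or separate cultures was not stated. The p-values therefore measure only the spread between these libraries, which may be technical. The comparison addresses which mitotic transcripts differed in level once the miRNA had been supplied. The level of bta-miR-484 itself was not analysed here, and the sequencing depth of each library is unknown.

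The samples are labelled adipocyte, and the study's methods use both adipocyte and preadipocyte for the cultured cells. Of 12 preadipocyte markers, 11 passed the filter, and their summed level lay between 23507 FPKM (agomir NC library 1) and 24819 FPKM (agomir NC library 2), with COL3A1 the most abundant at a mean of 7623 FPKM and DLK1 listed at 0 in every library. The 8 markers of mature adipocytes summed to between 11.0 and 12.6 FPKM. LPL was the most abundant of them at 3.73 FPKM, and ADIPOQ, CIDEC and LEP were below the filter, so defining transcripts of mature adipocytes were near 0. Markers of other cells that fat can hold were also low, and 4 of 6 were below the filter in each of the next 3 lists. The 6 endothelial markers summed to at most 4.54 FPKM, the 6 leukocyte markers to at most 8.27 FPKM, and the 6 mesothelial and epithelial markers to at most 2.25 FPKM. Their most abundant genes were VWF at 3.39 FPKM, CD14 at 6.27 FPKM and UPK3B at 0.835 FPKM, and CLDN5 and KRT18 were listed at 0 in every library. The 6 markers of pericytes and smooth muscle summed to between 211 and 241 FPKM, nearly all of it ACTA2 at 207 FPKM, while RGS5, MYH11 and DES were below the filter.

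At the unadjusted limma p, 2 of the 11 tested preadipocyte markers were lower and 0 higher with the agomir, and of the 5 tested markers of mature adipocytes 1 was lower and 1 higher, beside 4.31% of all genes lower and 6.63% higher. No tested marker of the other cells passed it. NT5E, the ecto-enzyme CD73, was at 71.7, 70.6 and 77.5 FPKM in agomir libraries 1, 2 and 3 and at 83.1, 89.2 and 89.4 FPKM in agomir NC libraries 1, 2 and 3, and later values follow the same order of library numbers. DCN, the matrix proteoglycan decorin, was at 2991, 3102 and 3248 FPKM across agomir NC libraries and 2840, 2899 and 2850 FPKM across agomir libraries. For both genes every agomir value was below every agomir NC value, with log2 fold changes of -0.25 (unadjusted limma p 0.000692) and -0.12 (0.0196). FABP4, a fatty acid carrier of adipocytes, was at 3.57, 2.21 and 2.88 FPKM across agomir NC libraries and 1.82, 2.33 and 1.54 FPKM across agomir libraries. PPARG, the nuclear receptor that drives adipocyte differentiation, was at 3.39, 3.34 and 2.96 FPKM across agomir NC libraries and 3.99, 3.69 and 3.91 FPKM across agomir libraries. FABP4 overlapped between the groups and PPARG did not, with log2 fold changes of -0.49 (0.0160) and 0.23 (0.0310). After Benjamini-Hochberg adjustment over all genes tested, the limma p was 0.209 for NT5E, 0.376 for DCN, 0.363 for FABP4 and 0.407 for PPARG. NT5E kept its unadjusted p below 0.05 with any 1 library left out. DCN lost it without agomir library 1 (log2 fold change -0.11, p of 0.0694) or 3 (-0.12, 0.0733), without the filter (-0.12, 0.0909), without the variance trend (-0.12, 0.0711) and after quantile normalization, which put its log2 fold change at 0. FABP4 lost it without agomir library 3 (log2 fold change -0.38, p of 0.0593) or agomir NC library 1 (-0.35, 0.0705), and PPARG without agomir library 1 (0.21, 0.0855) or 3 (0.22, 0.0760) or agomir NC library 3 (0.17, 0.102). The part of these markers in the mitotic results was not tested.

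Entry into mitosis is driven by cyclin B with CDK1, switched on by CDC25 phosphatases and helped by the Polo-like and Aurora kinases. Kinetochores assemble on the centromeres and bind spindle microtubules, and the spindle checkpoint holds back the anaphase-promoting complex until every chromosome is attached. Most of these genes are transcribed late in the cell cycle, so that in a culture of precursor cells their transcripts come mainly from the cells that are dividing.

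The members were transcribed in all 6 libraries, at single-library values from 0.924 FPKM (KIF14) to 44.0 FPKM (ANLN) and with a median level of 5.72 FPKM. Summed over the members, the level was 348, 380 and 370 FPKM in agomir libraries 1, 2 and 3, and 405, 352 and 368 FPKM in agomir NC libraries 1, 2 and 3. The highest and the second lowest of these sums both belonged to the agomir NC, and the groups overlapped. The group means were 375 ± 27.6 FPKM in agomir NC libraries and 366 ± 16.4 FPKM in agomir libraries (SD, n = 3), a ratio of 0.976. In bulk RNA, fewer dividing cells and less mitotic RNA per cell cannot be told apart. As a share of all FPKM of a library, the members took 0.0945%, 0.103% and 0.101% in the agomir libraries and 0.110%, 0.0961% and 0.0969% in the agomir NC libraries.

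Agomir NC library 1 stood apart in these genes. It was the highest of the 6 libraries for 24 of the 50 members, against 13.8% of all genes tested, and the lowest for 0 of them. In it, 42 of the 50 members lay above the mean of their own group, with a median deviation of 0.094 on the log2 scale. Agomir library 1 was on the low side of its group, where 10 of the 50 members lay above the group mean and the median deviation was -0.076. Agomir NC library 2 was also low, at a median of -0.057, and it was the lowest library for 16 members, beside 21.4% of all genes tested. Agomir library 2 was on the high side, at a median of 0.066 with 38 members above the group mean. Over all genes tested, the medians of the 6 libraries were at most 0.013 in size. Within groups, the SD of log2(FPKM + 0.5) had a median of 0.14 over the members and 0.099 over all genes. The median level was 5.72 FPKM over the members and 8.36 FPKM over all genes tested, and the SDs were not compared at matched levels. The 102 other mitotic genes with a value, described further on, showed deviations of the same sign in these 4 libraries, with medians of 0.083 in agomir NC library 1, -0.074 in agomir NC library 2, -0.056 in agomir library 1 and 0.054 in agomir library 2, and 81 of the 102 lay above the group mean in agomir NC library 1. What set these libraries apart was not tested.

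**Figure D1:**
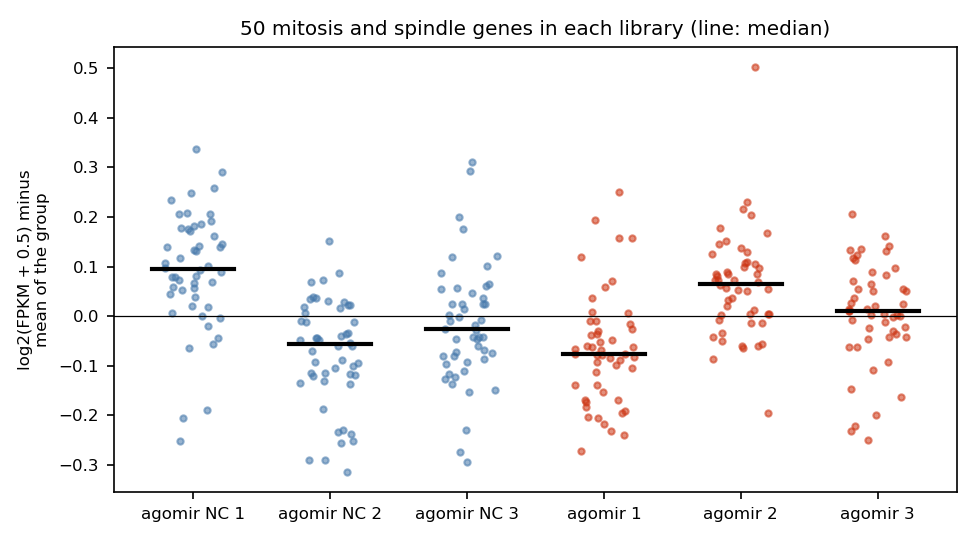
Each point is 1 of the 50 members in 1 library, as log2(FPKM + 0.5) minus the mean of the 3 libraries of its group, and the black lines are medians. The medians are 0.094, -0.057 and -0.027 in agomir NC libraries 1, 2 and 3, and -0.076, 0.066 and 0.011 in agomir libraries 1, 2 and 3.

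Among the 50 members, 3 were lower with the agomir at an unadjusted limma p of 0.05 (CCNB2, UBE2C and CENPM), which is 6% of them, beside 4.31% of all genes tested. Higher with the agomir were 2 members (AURKA and CDC25C), or 4%, beside 6.63% of all genes. The lower members numbered 1 without agomir library 3 (beside 3.62% of all genes), 1 without agomir NC library 1 (4.80%) and 0 without agomir NC library 3 (3.08%), and the higher ones 1 without agomir library 2 (4.47%) or agomir library 3 (5.24%). After Benjamini-Hochberg adjustment over all 12422 genes, limma gave 0 members under 0.05, against 5 at the unadjusted p, and 0.00805% of all genes, that is, 1 gene. The members' adjusted p-values in limma ran from 0.231 to 0.999. Without overlap between the groups, 1 member was lower (NDC80, 2% of the members, beside 6.36% of all genes) and 2 were higher (AURKA and CDC25C, 4%, beside 10.9%). Log2 fold changes, agomir minus agomir NC on the log2(FPKM + 0.5) scale, which understates the change of genes with low FPKM, were below 0 for 27 of the 50 members (54%) and for 44.9% of all genes. Their median was -0.0088 over the members, with quartiles of -0.076 and 0.050, and 0.013 over all genes. In each direction, the members' share past the unadjusted p was near that of the whole table.

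The sign of the members' median rested on single libraries. Without agomir NC library 1 the median was 0.043, without agomir library 1 it was 0.030, and leaving out any other library kept it below 0. The ratio of summed levels turned with the same libraries, from -0.035 as log2 to 0.025 without agomir NC library 1 and 0.00014 without agomir library 1. Of the 50 members, 31 had a log2 fold change that took the other sign when some single library was left out, and 19 kept their sign throughout. The log2 fold changes of 36 members were under 0.1 in size, and the share of all genes that changed sign is not given here. Of all genes past the unadjusted p, 60.6% were higher with the agomir, and 49.4% after median-ratio scaling of the libraries. Missing the unadjusted p, as 45 members did, does not show that levels were equal. The 95% intervals of these members from limma reached from -0.52 (NUSAP1) to 0.61 (NCAPH) at the extremes, and over all 50 members 44 had both bounds under 0.5 in size.

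**Figure D2:**
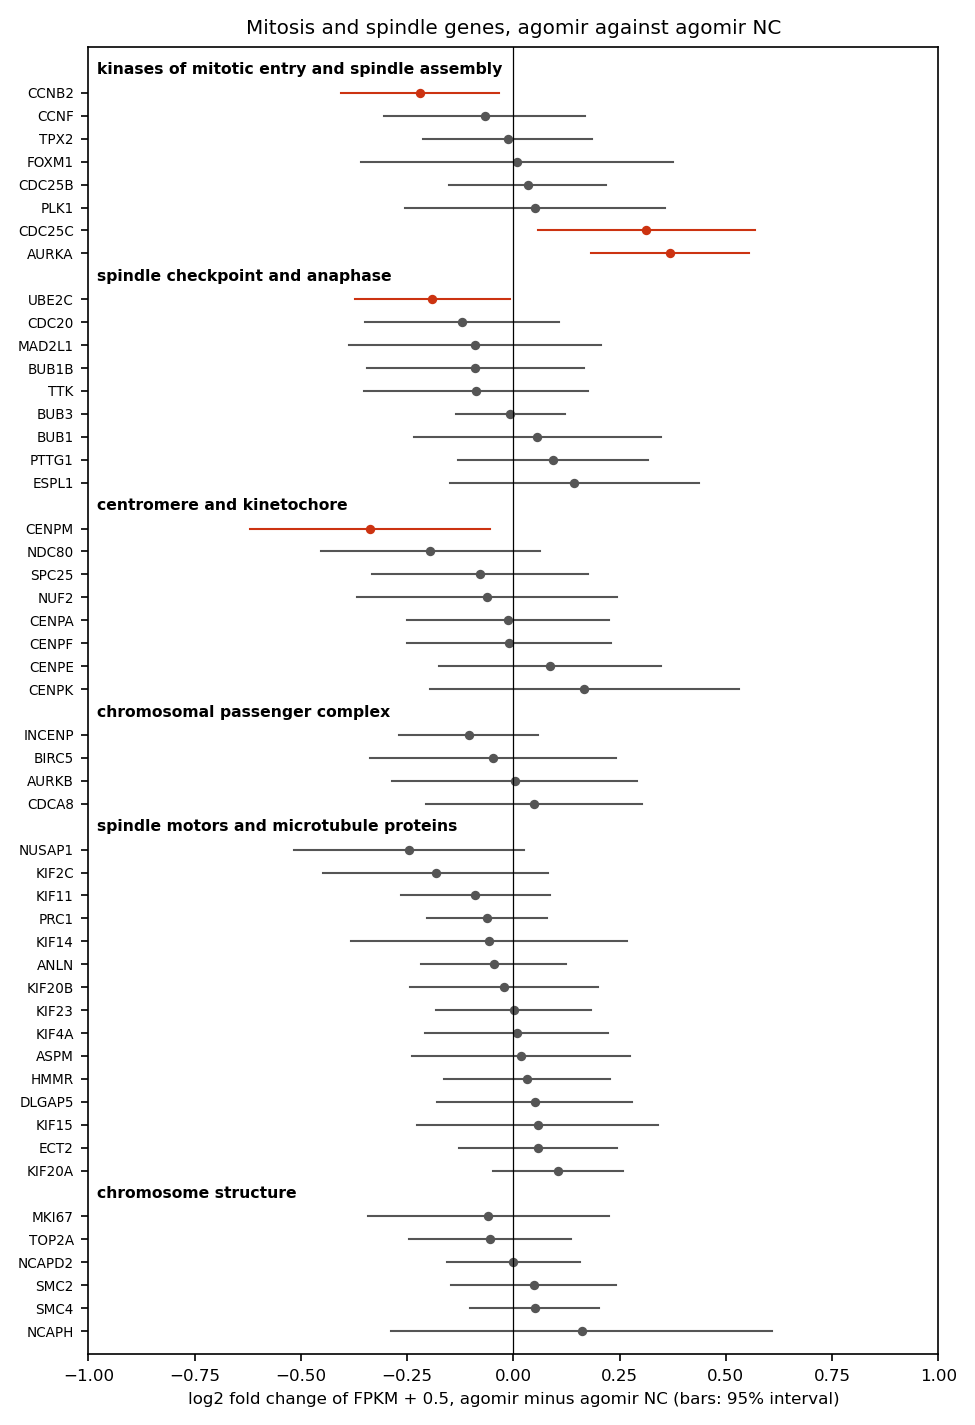
Points are log2 fold changes of log2(FPKM + 0.5), agomir minus agomir NC, for the 50 members ordered by role, with 95% intervals from limma as bars, and members past an unadjusted p of 0.05 are red. AURKA at 0.37 and CDC25C at 0.31 lie to the right, CENPM at -0.34, CCNB2 at -0.22 and UBE2C at -0.19 to the left, and most other points lie within 0.1 of 0.

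Of the 8 genes of mitotic entry and spindle assembly, 2 were higher (25%, beside 6.63% of all genes) and 1 was lower (12.5%, beside 4.31%) at the unadjusted p. AURKA, the Aurora kinase of centrosomes and spindle poles, was at 4.95, 4.55 and 4.60 FPKM across agomir NC libraries and 5.74, 6.68 and 6.23 FPKM across agomir libraries. All 3 agomir libraries lay above all 3 agomir NC libraries, and agomir NC library 1, high for so many members, was only slightly above the other controls. Its means were 4.70 ± 0.214 FPKM in agomir NC libraries and 6.22 ± 0.472 FPKM in agomir libraries (SD, n = 3). The log2 fold change of AURKA was 0.37 with an SE of 0.083, at an unadjusted limma p of 0.00141 and a Benjamini-Hochberg adjusted p of 0.231, and rank 76 by p among all genes tested. The exact permutation p, two-sided over the 20 ways to label the libraries, was 0.1, the smallest that 3 against 3 libraries can give. In the 15 alternative analyses its log2 fold change stayed between 0.32 and 0.42, and each gave an unadjusted p below 0.05. Among the other members past the unadjusted limma p, the exact permutation p was 0.1 for CDC25C and 0.2 for CCNB2, UBE2C and CENPM. NDC80, which missed the unadjusted limma p, also had an exact permutation p of 0.1.

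CDC25C, a phosphatase that activates CDK1 at mitotic entry, was measured at 1.94, 1.98 and 1.91 FPKM across agomir NC libraries and 2.16, 2.65 and 2.85 FPKM across agomir libraries. The agomir NC values were almost equal, and the lowest agomir value, in library 1, was just above them. Means were 1.95 ± 0.0345 FPKM in agomir NC libraries and 2.55 ± 0.353 FPKM in agomir libraries (SD, n = 3), and the log2 fold change was 0.31 (SE 0.11), with an unadjusted limma p of 0.0216 and an adjusted p of 0.383 by Benjamini-Hochberg. The unadjusted p was 0.0618 without agomir library 2 and 0.0906 without agomir library 3, where the log2 fold changes were 0.29 and 0.24. CCNB2, the B-type cyclin that partners CDK1, went the other way, with 8.51, 7.52 and 8.56 FPKM under the agomir NC, against 7.60, 6.67 and 6.63 FPKM under the agomir. Agomir library 1, at 7.60 FPKM, was just above agomir NC library 2, at 7.52 FPKM, so the groups overlapped. CCNB2 means were 8.20 ± 0.587 FPKM in agomir NC libraries and 6.97 ± 0.548 FPKM in agomir libraries (SD, n = 3). Its log2 fold change was -0.22 (SE 0.083), at an unadjusted limma p of 0.0247 and a Benjamini-Hochberg adjusted p of 0.396. The unadjusted p was 0.0743 without agomir library 2, 0.0808 without agomir library 3, 0.0760 without agomir NC library 1 and 0.0772 without agomir NC library 3, each with a log2 fold change of -0.19.

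PLK1, the Polo-like kinase of centrosome maturation and mitotic progression, had values of 9.34, 6.69 and 9.60 FPKM across agomir NC libraries and 7.53, 9.23 and 9.65 FPKM across agomir libraries. Agomir library 1 and agomir NC library 2 were the low ones, and the groups overlapped widely. TPX2, which activates AURKA on spindle microtubules, stood at 10.3, 8.63 and 8.28 FPKM across agomir NC libraries and 8.44, 9.51 and 8.88 FPKM across agomir libraries. The highest value of TPX2 was in agomir NC library 1, and the groups overlapped. FOXM1, a transcription factor of late cell cycle genes, was among the 5 least abundant members, with 1.54, 1.29 and 2.09 FPKM under the agomir NC, against 1.39, 2.00 and 1.54 FPKM under the agomir. Its means were equal to 3 digits, at 1.64 FPKM in both groups, and the agomir values lay inside the agomir NC range. The limma 95% intervals were -0.25 to 0.36 for PLK1, -0.21 to 0.19 for TPX2 and -0.36 to 0.38 for FOXM1. The remaining members of this role were CDC25B, a further phosphatase of mitotic entry, with a log2 fold change of 0.034, and CCNF, the cyclin F subunit of a ubiquitin ligase, with -0.068. With 1 library left out they ran from -0.0012 to 0.066 for CDC25B and from -0.12 to 0.017 for CCNF. Summed over the 8 genes, levels were 41.3 ± 3.18 FPKM in agomir NC libraries and 42.4 ± 2.29 FPKM in agomir libraries (SD, n = 3).

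**Figure D3:**
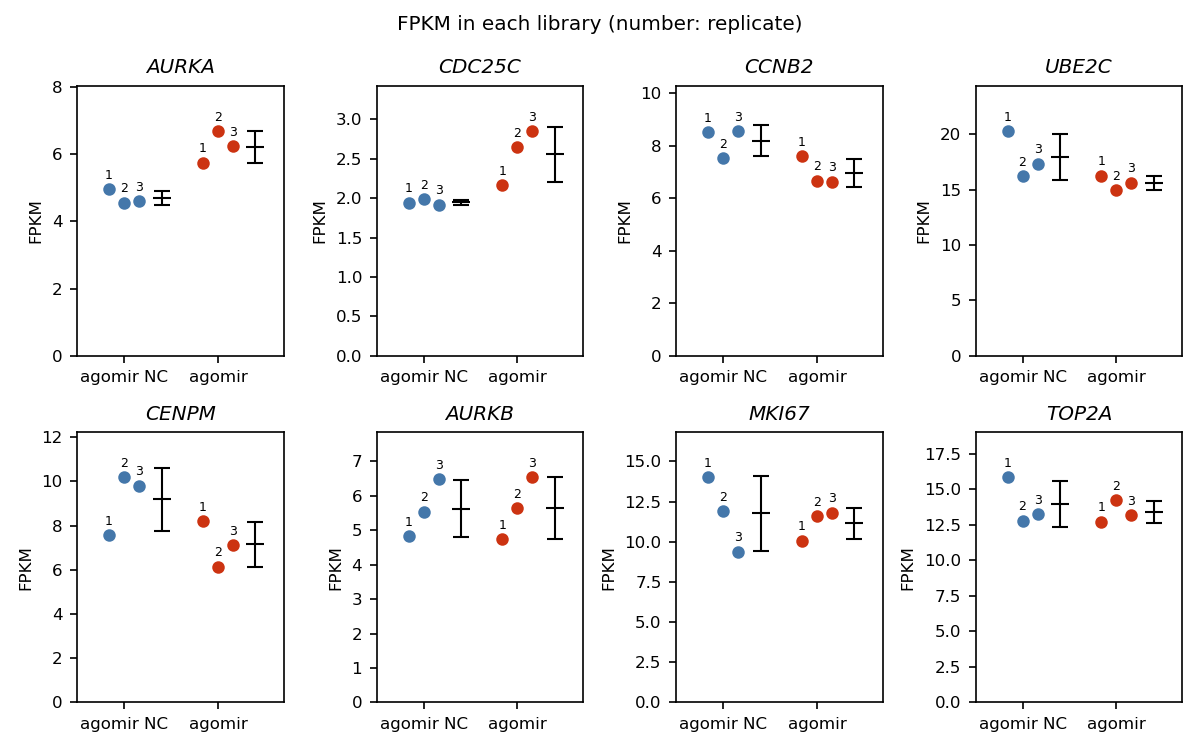
Each panel shows the FPKM of 1 gene in the 3 agomir NC and the 3 agomir libraries, numbered by replicate, with the mean and SD in black. AURKA and CDC25C show no overlap between the groups, while CCNB2, UBE2C, CENPM, AURKB, MKI67 and TOP2A overlap, with means of 11.8 and 11.2 FPKM for MKI67.

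Of the 9 genes of the spindle checkpoint and anaphase, 1 was lower (11.1%, beside 4.31% of all genes) and 0 were higher (beside 6.63%) at the unadjusted limma p. UBE2C, the E2 enzyme that works with the anaphase-promoting complex, was at 20.3, 16.2 and 17.3 FPKM across agomir NC libraries and 16.2, 14.9 and 15.6 FPKM across agomir libraries. Agomir NC library 1 was well above the rest, and agomir NC library 2 was within rounding of agomir library 1. The means of UBE2C were 17.9 ± 2.11 FPKM in agomir NC libraries and 15.6 ± 0.664 FPKM in agomir libraries (SD, n = 3). Its log2 fold change was -0.19 (SE 0.081) at an unadjusted limma p of 0.0420 and an adjusted p of 0.438 by Benjamini-Hochberg. Without agomir NC library 1 it was -0.10, at an unadjusted p of 0.169. The call was also lost without agomir library 2 (-0.16, p of 0.121), agomir library 3 (-0.19, 0.0771) or agomir NC library 3 (-0.21, 0.0535). It was lost at the same log2 fold change without the filter (0.0611) and without the variance trend (0.0737).

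CDC20, the activator through which the checkpoint controls the anaphase-promoting complex, was at 15.8, 11.7 and 14.1 FPKM across agomir NC libraries and 11.7, 13.4 and 12.7 FPKM across agomir libraries. The highest value was again in agomir NC library 1, and agomir NC library 2 was as low as agomir library 1. Its log2 fold change of -0.12 had a limma p of 0.264 unadjusted, and it became -0.23 (p of 0.0188) without agomir NC library 2 and -0.025 (p of 0.802) without agomir NC library 1. BUB1, a checkpoint kinase of the kinetochore, read 4.74, 3.52 and 4.70 FPKM under the agomir NC, against 3.82, 4.72 and 4.96 FPKM under the agomir. BUB3, its binding partner and the second most abundant member, read 24.4, 23.3 and 24.5 FPKM under the agomir NC, against 22.4, 25.2 and 24.3 FPKM under the agomir. Both overlapped between the groups, and BUB3 varied little, between 22.4 and 25.2 FPKM over the 6 libraries. PTTG1, the securin that restrains separase, was at 7.57, 6.45 and 6.07 FPKM across agomir NC libraries and 7.35, 7.75 and 6.41 FPKM across agomir libraries. ESPL1, the separase that cuts cohesin at anaphase, was at 3.34, 2.85 and 2.20 FPKM across agomir NC libraries and 3.03, 3.00 and 3.28 FPKM across agomir libraries. For both genes the mean was higher with the agomir, at 7.17 against 6.70 FPKM for PTTG1 and 3.10 against 2.79 FPKM for ESPL1, and agomir NC library 1 lay among or above the agomir values. ESPL1 had its lowest value, 2.20 FPKM, in agomir NC library 3, and its log2 fold change of 0.14 was 0.0072 without that library and 0.26 without agomir NC library 1. PTTG1, with 0.094, ran from 0.031 to 0.18 without the same libraries. The checkpoint kinase TTK had a log2 fold change of -0.089, the checkpoint complex proteins BUB1B and MAD2L1 had -0.089 and -0.091, and none of them passed the unadjusted p. With 1 library left out, TTK ran from -0.17 to -0.0069, BUB1B from -0.17 to 0.030 and MAD2L1 from -0.20 to 0.025, and both of the latter were above 0 without agomir library 1. The summed level of this role was 82.4 ± 6.04 FPKM in agomir NC libraries and 78.9 ± 3.52 FPKM in agomir libraries (SD, n = 3).

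Of the 8 centromere and kinetochore genes, 1 was lower (12.5%, beside 4.31% of all genes) and 0 were higher (beside 6.63%) at the unadjusted limma p, and 6 of the 8 had log2 fold changes below 0 (75%, beside 44.9%). That share rested partly on agomir NC library 1. Without it, CENPA, CENPF and NUF2 were above 0, at 0.092, 0.092 and 0.083. CENPM, a subunit of the inner kinetochore network at centromeres, had the lowest log2 fold change of the 50 members. It was measured at 7.57, 10.2 and 9.81 FPKM across agomir NC libraries and 8.20, 6.14 and 7.12 FPKM across agomir libraries. Agomir NC libraries 2 and 3 were the highest, and agomir NC library 1, at 7.57 FPKM, was below agomir library 1, at 8.20 FPKM, the reverse of its place in most members. Means were 9.19 ± 1.41 FPKM in agomir NC libraries and 7.15 ± 1.03 FPKM in agomir libraries (SD, n = 3). The log2 fold change of CENPM was -0.34 (SE 0.13), at an unadjusted limma p of 0.0240 and a Benjamini-Hochberg adjusted p of 0.393. Without agomir library 2 the log2 fold change was -0.24 at an unadjusted p of 0.0957, without agomir NC library 2 it was -0.26 at 0.0900, and without agomir NC library 3 it was -0.29 at 0.0808. NDC80, which names the outer kinetochore complex that grips microtubules, was at 4.18, 4.08 and 4.08 FPKM across agomir NC libraries and 3.73, 4.06 and 2.89 FPKM across agomir libraries. The 3 agomir NC values were nearly equal, agomir library 2 was just below them, and agomir library 3 was lowest. Although the groups did not overlap, the log2 fold change of -0.20 had an unadjusted limma p of 0.122. It was -0.28 (p of 0.0395) without agomir library 2 and -0.070 (p of 0.494) without agomir library 3. Its partners in the same complex were SPC25, at 2.38, 2.01 and 2.23 FPKM under the agomir NC, against 1.99, 2.33 and 1.87 FPKM under the agomir, and NUF2, with a log2 fold change of -0.062 that was -0.21 without agomir NC library 2 and 0.083 without agomir NC library 1. SPC25 overlapped between the groups, and its log2 fold change of -0.079 was -0.15 without agomir library 2 and -0.025 without agomir library 3.

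CENPA, the histone H3 variant that marks centromeres, was at 8.55, 6.17 and 7.48 FPKM across agomir NC libraries and 7.18, 7.09 and 7.55 FPKM across agomir libraries. The agomir values were close together and lay inside the wider range of the agomir NC values. CENPE, a kinesin that moves chromosomes along microtubules, was at 2.80, 2.55 and 2.53 FPKM across agomir NC libraries and 2.44, 3.32 and 2.75 FPKM across agomir libraries. CENPF, a large protein of the outer kinetochore, was at 5.05, 4.01 and 3.96 FPKM across agomir NC libraries and 4.08, 4.65 and 4.13 FPKM across agomir libraries. Agomir library 2 was the highest for CENPE and agomir NC library 1 for CENPF, and both genes overlapped between the groups. Their log2 fold changes were -0.012 for CENPA, 0.086 for CENPE and -0.011 for CENPF, and CENPK, of the same inner network as CENPM, had 0.17, opposite in sign to CENPM, and had 0.023 without agomir NC library 2 and 0.32 without agomir NC library 3. The role summed to 39.4 ± 2.62 FPKM in agomir NC libraries and 36.6 ± 1.30 FPKM in agomir libraries (SD, n = 3).

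The 4 genes of the chromosomal passenger complex, which corrects faulty attachments and later guides cytokinesis, gave 0 members lower and 0 higher at the unadjusted limma p, beside 4.31% and 6.63% of all genes. AURKB, its kinase, was at 4.83, 5.54 and 6.48 FPKM across agomir NC libraries and 4.74, 5.64 and 6.53 FPKM across agomir libraries. The groups covered almost the same range, and the log2 fold change was 0.0026 with a limma 95% interval of -0.28 to 0.29. After median-ratio scaling it was -0.011. AURKA, its close relative in sequence, had 0.37 in the same libraries, and the difference between both kinases was not tested. BIRC5, the survivin subunit, was at 14.0, 9.12 and 10.4 FPKM across agomir NC libraries and 10.0, 10.8 and 11.0 FPKM across agomir libraries. Agomir NC library 1 stood above all others and agomir NC library 2 below all others, so the agomir values lay inside the control range. INCENP, the scaffold of the complex, was at 12.3, 12.0 and 11.2 FPKM across agomir NC libraries and 10.8, 10.3 and 11.9 FPKM across agomir libraries. One agomir value, 11.9 FPKM in library 3, lay among the agomir NC values, and the means were 11.0 FPKM for the agomir and 11.9 FPKM for its control (log2 fold change -0.11, unadjusted limma p 0.180). That log2 fold change was -0.062 (p of 0.454) without agomir library 2 and -0.16 (0.0652) without agomir library 3. CDCA8, the borealin subunit, had a log2 fold change of 0.048, which ran from -0.032 to 0.12 with 1 library left out. The role summed to 31.5 ± 2.58 FPKM in agomir NC libraries and 30.3 ± 2.41 FPKM in agomir libraries (SD, n = 3).

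The 15 spindle motors and microtubule proteins also gave 0 lower and 0 higher members at the unadjusted limma p, beside the same shares of all genes, and their median log2 fold change was 0.00081 (0.013 over all genes). ANLN, the anillin that scaffolds the contractile ring, was the most abundant of the 50 members, at 44.0, 36.3 and 39.6 FPKM across agomir NC libraries and 35.6, 40.9 and 39.3 FPKM across agomir libraries. Agomir NC library 1 was the highest and agomir library 1 the lowest. KIF20A, a kinesin of the central spindle, was at 16.9, 14.5 and 16.1 FPKM across agomir NC libraries and 16.3, 17.7 and 17.2 FPKM across agomir libraries. Here agomir library 2 was the highest and agomir NC library 2 the lowest, and the means were 15.8 ± 1.19 FPKM in agomir NC libraries and 17.1 ± 0.733 FPKM in agomir libraries (SD, n = 3). Its log2 fold change of 0.11 had an unadjusted limma p of 0.154, and was 0.047 (p of 0.496) without agomir NC library 2 and 0.15 (0.0655) without agomir NC library 1. KIF11, the motor that pushes spindle poles apart, was at 10.5, 8.78 and 9.14 FPKM across agomir NC libraries and 8.60, 8.87 and 9.09 FPKM across agomir libraries. PRC1, which bundles the antiparallel microtubules of the midzone, was at 10.6, 10.6 and 9.79 FPKM across agomir NC libraries and 9.81, 9.78 and 10.1 FPKM across agomir libraries. For both genes most agomir values lay below most agomir NC values with some overlap, and the log2 fold changes were -0.089 for KIF11 and -0.061 for PRC1. With 1 library left out they ran from -0.14 (agomir NC library 2) to -0.017 (agomir NC library 1) for KIF11 and from -0.099 (agomir NC library 3) to -0.042 (agomir NC library 1) for PRC1.

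KIF14 and KIF15 were the least abundant motors. KIF14, which acts in cytokinesis, was at 1.41, 1.14 and 1.02 FPKM across agomir NC libraries and 0.924, 1.18 and 1.27 FPKM across agomir libraries. KIF15, which helps to hold the bipolar spindle, was at 1.73, 1.27 and 1.32 FPKM across agomir NC libraries and 1.52, 1.51 and 1.49 FPKM across agomir libraries. The agomir values of KIF15 were almost equal and lay within the agomir NC range, and those of KIF14 overlapped with the controls. NUSAP1, which stabilizes spindle microtubules, is named after its values were seen, because it came closest to the threshold from outside. It was at 7.88, 5.70 and 6.27 FPKM across agomir NC libraries and 5.14, 6.18 and 5.08 FPKM across agomir libraries. Agomir NC library 1 was the highest, and agomir library 2 exceeded agomir NC library 2. Its log2 fold change was -0.25 at an unadjusted limma p of 0.0701, and the p was 0.0436 after quantile normalization (-0.27) and 0.0464 with array weights (-0.27). It was 0.0302 without agomir library 2 (-0.33) and 0.0228 without agomir NC library 2 (-0.34), while the log2 fold change was -0.12 without agomir NC library 1. KIF2C, a microtubule depolymerase at centromeres, had a log2 fold change of -0.18, which was -0.31 (p of 0.0156) without agomir library 1 and -0.083 without agomir library 3. The other motors and microtubule proteins, KIF20B, KIF23, KIF4A, ASPM, HMMR, DLGAP5 and ECT2, had log2 fold changes from -0.021 (KIF20B) to 0.058 (ECT2), and each of these 7 took the other sign when some single library was left out, within -0.097 (ASPM) and 0.15 (DLGAP5). The 15 genes summed to 123 ± 9.35 FPKM in agomir NC libraries and 121 ± 5.79 FPKM in agomir libraries (SD, n = 3).

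Among the 6 genes of chromosome structure, 0 were lower and 0 were higher at the unadjusted limma p, again beside 4.31% and 6.63% of all genes. MKI67, the Ki-67 protein that coats mitotic chromosomes and is widely used as a marker of cycling cells, was at 14.0, 11.9 and 9.37 FPKM across agomir NC libraries and 10.1, 11.6 and 11.8 FPKM across agomir libraries. The highest and the lowest value both belonged to the agomir NC, in libraries 1 and 3, and the agomir values lay between them. Its log2 fold change was -0.059 with a limma 95% interval of -0.34 to 0.22. TOP2A, the topoisomerase that untangles sister chromatids, was at 15.8, 12.8 and 13.2 FPKM across agomir NC libraries and 12.7, 14.2 and 13.2 FPKM across agomir libraries. Above the rest was again agomir NC library 1, and the other 5 values lay between 12.7 and 14.2 FPKM. SMC2 and SMC4, the ATPase pair of condensin, which compacts chromosomes, differed in level. SMC2 was at 5.69, 5.09 and 4.68 FPKM across agomir NC libraries and 5.29, 5.47 and 5.24 FPKM across agomir libraries. SMC4 was at 15.8, 14.1 and 14.2 FPKM across agomir NC libraries and 14.4, 16.1 and 15.2 FPKM across agomir libraries. Both had the agomir means slightly above the agomir NC means, with log2 fold changes of 0.048 and 0.050, and both overlapped between the groups. The value of SMC4 was 0.0098 without agomir library 2 and 0.10 without agomir NC library 1. NCAPH, a further condensin subunit, was at 1.51, 1.50 and 1.21 FPKM across agomir NC libraries and 1.26, 2.50 and 1.31 FPKM across agomir libraries. Agomir library 2, at 2.50 FPKM, was far above the other 5 values, and the log2 fold change of 0.16 was -0.091 without it. NCAPD2, of the same complex, had a log2 fold change of -0.00029, between -0.049 and 0.034 with 1 library left out. The role summed to 56.8 ± 5.75 FPKM in agomir NC libraries and 56.6 ± 3.33 FPKM in agomir libraries (SD, n = 3).

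A list of 103 other mitotic genes was read from the same fit. Of the 102 with a value under their symbol (ANAPC2 had none), 1 was lower (0.98%, beside 4.31% of all genes) and 4 were higher (3.92%, beside 6.63%) at the unadjusted limma p, 0 passed the Benjamini-Hochberg adjusted p, and the median log2 fold change was -0.0014. MAD1L1, which anchors MAD2L1 at kinetochores, was at 3.77, 3.63 and 3.41 FPKM across agomir NC libraries and 4.48, 5.63 and 4.76 FPKM across agomir libraries. It had no overlap and its log2 fold change was 0.41 at an unadjusted limma p of 0.00231. SKA2, of a microtubule-binding complex at kinetochores, was at 22.4, 18.2 and 22.2 FPKM across agomir NC libraries and 23.8, 23.4 and 25.6 FPKM across agomir libraries. ANAPC1, the largest subunit of the anaphase-promoting complex, was at 7.31, 6.53 and 5.78 FPKM across agomir NC libraries and 7.37, 7.77 and 7.87 FPKM across agomir libraries. DEPDC1 was at 1.81, 1.64 and 1.74 FPKM across agomir NC libraries and 2.13, 2.51 and 2.05 FPKM across agomir libraries. In these 3 genes every agomir value was above every agomir NC value, by a narrow margin for SKA2 and ANAPC1, with log2 fold changes of 0.21, 0.22 and 0.29. FAM83D, a spindle protein, was the 1 lower gene, at 2.59, 2.06 and 1.91 FPKM across agomir NC libraries and 1.54, 1.79 and 1.68 FPKM across agomir libraries, with no overlap and a log2 fold change of -0.30. MAD1L1 kept an unadjusted p below 0.05 with any 1 library left out. SKA2 lost it without agomir library 3 (log2 fold change 0.17, p of 0.0913) or agomir NC library 2 (0.12, 0.0895), and without the variance trend at the same log2 fold change (0.0574). ANAPC1 lost it without agomir library 2 (log2 fold change 0.21, p of 0.0765) or 3 (0.20, 0.0878) or agomir NC library 2 (0.22, 0.0642) or 3 (0.14, 0.127). DEPDC1 lost it without agomir library 2 (log2 fold change 0.21, p of 0.110) or agomir NC library 2 (0.26, 0.0786) or 3 (0.29, 0.0531). Among the fits with 1 library left out, FAM83D lost it without agomir library 1 (log2 fold change -0.26, p of 0.108) or 3 (-0.30, 0.0706) and without agomir NC library 1 (-0.19, 0.156) or 2 (-0.33, 0.0525). Without the filter its p was 0.0539 at the same log2 fold change.

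CDK1, the kinase that CCNB2 activates, was at 11.8, 10.2 and 10.9 FPKM across agomir NC libraries and 9.97, 8.96 and 10.8 FPKM across agomir libraries. CCNB1, the other main B-type cyclin, was at 15.7, 13.6 and 16.1 FPKM across agomir NC libraries and 13.3, 14.3 and 16.4 FPKM across agomir libraries. Both overlapped between the groups, with log2 fold changes of -0.14 for CDK1 and -0.046 for CCNB1, beside -0.22 for CCNB2. For CDK1 the unadjusted limma p was 0.124, and its log2 fold change was -0.20 (p of 0.0467) without agomir library 3, -0.074 (0.403) without agomir library 2 and -0.089 (0.356) without agomir NC library 1. Of 25 genes that act before mitosis, in S phase, 3 were lower (12%, beside 4.31% of all genes) and 0 higher (beside 6.63%) at the unadjusted limma p, and 21 had log2 fold changes below 0 (84%, beside 44.9%), with a median of -0.10 (0.013 over all genes). After Benjamini-Hochberg adjustment over all genes tested, 0 of the 25 were under 0.05 in limma, and their lowest adjusted p was 0.261. The difference between that list and the mitotic members was not tested. GINS2, of the replicative helicase, was at 3.19, 3.80 and 3.67 FPKM across agomir NC libraries and 2.73, 2.46 and 2.49 FPKM across agomir libraries, its log2 fold change was -0.40, and its unadjusted p stayed below 0.05 with any 1 library left out. E2F1, a transcription factor of S phase genes, was at 1.91, 2.13 and 1.77 FPKM across agomir NC libraries and 1.35, 1.23 and 1.74 FPKM across agomir libraries. PCNA, the clamp of DNA polymerases, was at 13.5, 11.5 and 15.2 FPKM across agomir NC libraries and 11.6, 11.7 and 9.38 FPKM across agomir libraries. GINS2 and E2F1 had no overlap between the groups, and PCNA overlapped through agomir NC library 2. The log2 fold changes were -0.34 for E2F1 and -0.28 for PCNA. E2F1 missed the unadjusted p without agomir library 1 (log2 fold change -0.30, p of 0.0797) or 2 (-0.26, 0.105) or agomir NC library 1 (-0.34, 0.0575) or 2 (-0.28, 0.101). PCNA missed it without agomir library 3 (log2 fold change -0.18, p of 0.132) and without agomir NC library 1 (-0.27, 0.0765) or 3 (-0.19, 0.135). It also missed it at the same log2 fold change without the filter (0.0624) and without the variance trend (0.0632). CDK2, the kinase of S phase entry, was at 4.55, 5.65 and 4.04 FPKM across agomir NC libraries and 4.75, 4.90 and 5.40 FPKM across agomir libraries, with overlap and a log2 fold change of 0.082.

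All 50 members had a match in the RefSeq gene table of ARS-UCD2.0, a later assembly than the ARS-UCD1.2 named in the submitters' processing notes, so that table was used only for names and neighbours. In it, 19 of the 50 members overlapped the span of another gene, and whether the authors' counting used strand was not stated, so reads of such pairs may not have been told apart. AURKA, UBE2C and CENPM had no overlapping gene. CDC25C overlapped FAM53C, which was at a mean of 10.9 FPKM and had a log2 fold change of 0.012, and SLBP2, at 0.0063 FPKM. CCNB2 overlapped an uncharacterized locus with no value here. INCENP overlapped CSKMT, whose log2 fold change of 0.095 was opposite in sign to that of INCENP, at -0.11. KIF20A overlapped CDC23, with a log2 fold change of -0.072 beside 0.11 for KIF20A. NUSAP1 overlapped OIP5, NDUFAF1 and CHP1, which had log2 fold changes of 0.19, -0.048 and 0.094 beside -0.25 for NUSAP1. The value of OIP5 rested on agomir library 2 and was -0.11 without it. With 1 library left out, CDC23 ran from -0.19 to 0.041, NDUFAF1 from -0.095 to 0.023 and FAM53C from -0.037 to 0.067, while CSKMT (0.021 to 0.16) and CHP1 (0.034 to 0.16) stayed above 0.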

How the data were processed

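Expression was deposited as 1 FPKM value for each gene in each library. The submitters' processing notes name fastp, HISAT2, StringTie and ARS-UCD1.2, and whether strand was used is not given in the sources used here. Ratios of low values fell in no steps (at most 10 of 2983 low genes shared a bin of 0.002 log2), so whole reads were not recovered and depth is unknown. Genes averaging 0.5 FPKM or more were taken as log2(FPKM + 0.5) and compared with limma 3.58.1 in R 4.3.3, by a moderated two-sided test whose variance prior followed a trend, adjusted by Benjamini-Hochberg over 12422 genes. The model was tested on simulated data. Single genes also had an exact permutation test. The members and lists were chosen with earlier results of these data known. Values in every library are given for members past an unadjusted p of 0.05, the 5 most and 5 least abundant, and a set of main mitotic genes, and for genes of the other lists past that p (at most 6 each) with CDK1, CCNB1, PCNA and CDK2. NUSAP1, the partner genes and the remaining members are named beyond this rule. Alternatives were other pseudocounts, filters and scalings, no variance trend, array weights, a replicate block and leaving out each library. Promoter motifs and sequences were not analysed here.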

Additional observations from a re-analysis of the deposited data

How the results depend on the processing

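Median-ratio scaling, quantile normalization, array weights, no variance trend, the pseudocounts of 0.1 and 1, the other filters and the replicate block left 0 members past the adjusted limma p of 0.05, as did leaving out any 1 library, against 5 members at the unadjusted p in the reported analysis. Of 705 alternative log2 fold changes over 47 named genes, 613 kept their direction and side of the unadjusted threshold, 50 lost the call, 3 gained it and 39 changed sign. NUSAP1 and KIF2C, which passed that threshold only in some alternatives, were named beyond the rule and were not among the 47. Members lower at the unadjusted p numbered 0 to 4 without 1 library, beside 3.08% to 4.80% of all genes, and members higher 1 to 2, beside 4.47% to 6.68%. Members lower without overlap numbered 3 after median-ratio scaling (CCNB2 and UBE2C joined NDC80; 8% of all genes), with 2 higher (8.99%). Without 1 library, where fewer values can overlap, 2 to 6 members were lower, beside 9.88% to 11.9% of all genes, and 2 to 8 higher, beside 14.8% to 17.5%. The 6 lower came without agomir NC library 2 (11.8%) and the 8 higher without agomir NC library 1 (17.5%). The median of all genes was -0.00071 after median-ratio scaling and 0.0030 after quantile normalization. The 1 gene past the adjusted p was lost (0 genes) with a replicate block, with no variance trend and with no filter, and the count was 0 without agomir library 1 or agomir NC library 2 and 2 without agomir NC library 3. The replicate numbers were treated as names of libraries only, because what they stand for was not stated. Same-numbered deviations from the group means correlated at -0.051, 0.053 and 0.039. The replicate block gave 3 members lower and 2 higher, 522 genes lower and 738 higher, and of the named calls only that of FAM83D was lost (p of 0.0561). Some log2 fold changes took the other sign. They became -0.0032 for FOXM1 and -0.011 for AURKB after median-ratio scaling, and -0.020 for AURKB after quantile normalization. Without 1 library they ran from -0.11 to 0.024 for ANLN, -0.10 to 0.11 for AURKB, -0.18 to 0.12 for BIRC5, -0.070 to 0.16 for BUB1, -0.043 to 0.040 for BUB3, -0.13 to 0.020 for CCNB1, -0.017 to 0.20 for CDK2, -0.13 to 0.092 for CENPA, -0.016 to 0.17 for CENPE, -0.066 to 0.092 for CENPF, -0.11 to 0.15 for FOXM1, -0.13 to 0.036 for KIF14, -0.0028 to 0.16 for KIF15, -0.21 to 0.071 for MKI67, -0.091 to 0.30 for NCAPH, -0.11 to 0.15 for PLK1, -0.013 to 0.12 for SMC2, -0.11 to 0.036 for TOP2A and -0.071 to 0.075 for TPX2. The cause was not tested. Depth is unknown, so counting error could not be given.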
